A study of Mus musculus with 16 samples.

Results

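The genes described here make, take up, move or export cholesterol, or control those steps, in mouse hepatic stellate cells. These pericyte-like cells of the liver sinusoid keep vitamin A in lipid droplets and become matrix-producing myofibroblasts after injury. The list holds 28 genes. A gene was represented by the probe sets that the platform annotation assigns to its symbol alone, and of these the one with the highest mean over the 16 arrays was kept. Of the 28 genes, 26 had such a probe set, and 22 also reached log2 5 on at least 2 arrays and were tested, among 7823 tested genes in all. They comprised 13 of 18 synthesis enzymes, 5 of 5 regulators and 4 of 5 transport and storage genes. Mvk, Mvd, Tm7sf2 and Dhcr7 were measured but did not reach that level often enough, and Acat2 and Soat1 were not analysed here.

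Each array held RNA from 1 preparation of stellate cells, purified by density centrifugation from male Balb/c mice of 8 to 10 weeks and depleted of cells bearing F4/80, a macrophage surface protein. The arrays cover 5 states. Quiescent cells (5 arrays) came from normal mice and were lysed after 24 h on plates. Culture cells (3 arrays) were kept on plastic for 5 days in medium with 10% fetal bovine serum, and coculture cells (2 arrays, replicates 2 and 3) were kept likewise with Kupffer cells, the liver's own macrophages, across a transwell insert. A further coculture sample named in the design was not analysed here. The bile duct ligation cells (3 arrays) came from mice whose common bile duct had been tied for 15 days, and the CCl4 cells (3 arrays) from mice injected 4 times into the peritoneum with carbon tetrachloride at 0.5 µl per g body weight. Both in vivo groups were plated for 24 h, so the culture groups differ from the other 3 in days on plastic as well as in state. Whether the cells plated for 24 h had serum, and which preparations came from separate animals, is not given in the labels, so the p-values measure the spread between these preparations, which may be technical.

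Animal cells build cholesterol from acetyl-CoA through mevalonate, isoprenoid and squalene intermediates, close the ring to lanosterol and then trim and reduce it. When membrane cholesterol falls, the escort protein SCAP carries SREBP precursors from the endoplasmic reticulum to the Golgi for cleavage, and the freed SREBP-2 fragment switches on the enzyme genes. INSIG proteins hold SCAP back when sterols are plentiful. Excess cholesterol is turned into oxysterols, which activate LXR receptors and with them the exporters ABCA1 and ABCG1. In stellate cells, the loading of free cholesterol has been linked to sensitivity to TGF-beta.

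The promoters of 4 enzyme genes and of Abca1 are shown because on quiescent replicate 3 the enzymes stood highest and Abca1 lowest of their group, as described below. Each is the 150 bases before the RefSeq start site in the build GRCm38.p6, on the gene's own strand. Capitals mark the sterol regulatory element core TCACNCCAC, which SREBPs bind, and the NF-Y box CCAAT on either strand (ATTGG is the box on the opposite strand).
Hmgcs1, chr13:119690201-119690350, plus strand: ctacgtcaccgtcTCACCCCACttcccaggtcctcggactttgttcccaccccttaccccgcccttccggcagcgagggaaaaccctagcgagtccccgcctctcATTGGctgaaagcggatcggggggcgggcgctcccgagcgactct
Idi1, chr13:8885456-8885605, plus strand: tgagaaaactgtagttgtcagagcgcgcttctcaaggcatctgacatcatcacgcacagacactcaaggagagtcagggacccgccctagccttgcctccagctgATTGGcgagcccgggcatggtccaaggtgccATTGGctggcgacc
Cyp51, chr5:4104698-4104847, minus strand: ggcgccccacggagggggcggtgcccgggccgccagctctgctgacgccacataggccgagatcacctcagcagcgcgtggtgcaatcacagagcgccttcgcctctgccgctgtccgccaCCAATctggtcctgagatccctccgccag
Msmo1, chr8:64733579-64733728, minus strand: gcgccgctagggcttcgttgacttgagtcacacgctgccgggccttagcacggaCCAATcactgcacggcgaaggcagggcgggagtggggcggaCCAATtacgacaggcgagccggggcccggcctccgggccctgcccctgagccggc
Abca1, chr4:53159896-53160045, minus strand: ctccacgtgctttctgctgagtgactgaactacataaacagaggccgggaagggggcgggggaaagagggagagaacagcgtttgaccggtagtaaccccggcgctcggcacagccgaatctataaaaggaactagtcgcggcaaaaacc

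RefSeq promoter windows, which run from 250 bases before to 50 after a start, were at hand for 23 of the 28 genes. A gene counted if any of its windows held the motif. CCAAT stood on either strand in 19 of the 23 and in 14 of the 15 enzyme genes with a window, against 41.1% of all 27025 genes with a window. The Sp1 motif GGGCGG was in 22 of the 23, against 38.2% of all these genes. TCACNCCAC was found in Hmgcs1 alone, and 1.44% of all these genes held it. The DR4 motif of LXR, in its consensus spelling, was in 0 of the 23 genes and in 0.0148% of all. These are matches of letters in a short window and say nothing on binding.

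Of 11 stellate markers measured, 10 averaged log2 5 or more in quiescent cells, 9 in culture and in coculture, and 8 after ligation and after CCl4. Des, Pdgfrb, Pdgfra, Reln, Hand2, Lhx2, Cygb and Colec11 did so in every group, Lrat, the retinol-esterifying enzyme, in the quiescent and 5-day cells, and Vipr1 in quiescent cells; Ngfr did not exceed 3.67 on any array. The desmin gene Des ranged from 7.61 to 9.23 over the 16 arrays, and Pdgfrb, the beta receptor for PDGF, from 9.86 to 11.58. Adgre1, the F4/80 gene, stayed between 1.23 and 2.56. Hepatocyte markers were near the floor in the quiescent, culture and coculture cells and higher after injury. Alb averaged 2.75 ± 0.94 (SD, n = 5) in quiescent cells, 8.25 ± 0.84 (n = 3) after bile duct ligation and 9.33 ± 1.42 (n = 3) after CCl4. Of 12 hepatocyte markers measured, 0 averaged log2 5 in quiescent cells, 1 did so after ligation (Alb) and 4 after CCl4 (Alb, Ttr, Apoa1 and Fgb). Cyp7a1, Hnf4a, Tat and Pck1 did not exceed 2.33 on any array. The highest array values of the others were 6.79 for Apoa2, 5.93 for Cyp3a11, 3.98 for Apob and 2.69 for Cyp2e1. Of 5 cholangiocyte markers, Krt19 alone passed log2 5, in coculture (array values 5.56 and 5.64), and its part in the coculture results was not tested. An array had 6803 to 7037 genes of 18193 at log2 5 or more, and arrays of a group correlated at 0.929 to 0.983 across tested genes. In RNA from whole preparations, fewer cells of a type and less RNA per cell cannot be told apart.

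One quiescent array stood apart in these genes. Quiescent replicate 3 was the highest of the 5 quiescent arrays in 11 of 13 enzymes, whereas it was the highest in 20.1% of all tested genes. Its title in the labels ends in an X, not explained, where the other 4 quiescent titles end in their number. Its number 3 is taken from the front of the title. Its median difference from the other 4 was 1.02 on the log2 scale for the enzymes and 0.02 for all tested genes. It exceeded the mean of the rest by 1.71 for Sqle and Fdft1, 1.54 for Idi1 and 1.43 for Stard4, while for Abca1 it stood at -3.06. Coculture replicate 3 exceeded replicate 2 in 11 of 13 enzymes with a median difference of 1.28, and bile duct ligation replicate 3 was the highest of its group in 11 of 13, by a median of 0.66. Culture replicate 3 was the highest in 9 of 13, by a median of 0.34, and CCl4 replicate 3 in 1 of 13, so an array numbered 3 was on top for most enzymes in 4 of 5 groups. The labels do not say whether the number marks a shared day or batch. These arrays were picked out by their values in these genes, so the differences are a description. The enzyme medians against quiescent cells are given with and without quiescent 3, culture 3, coculture 3 and ligation 3, each in its own comparison. The calls that turn on these arrays are given likewise.

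**Figure D1:**
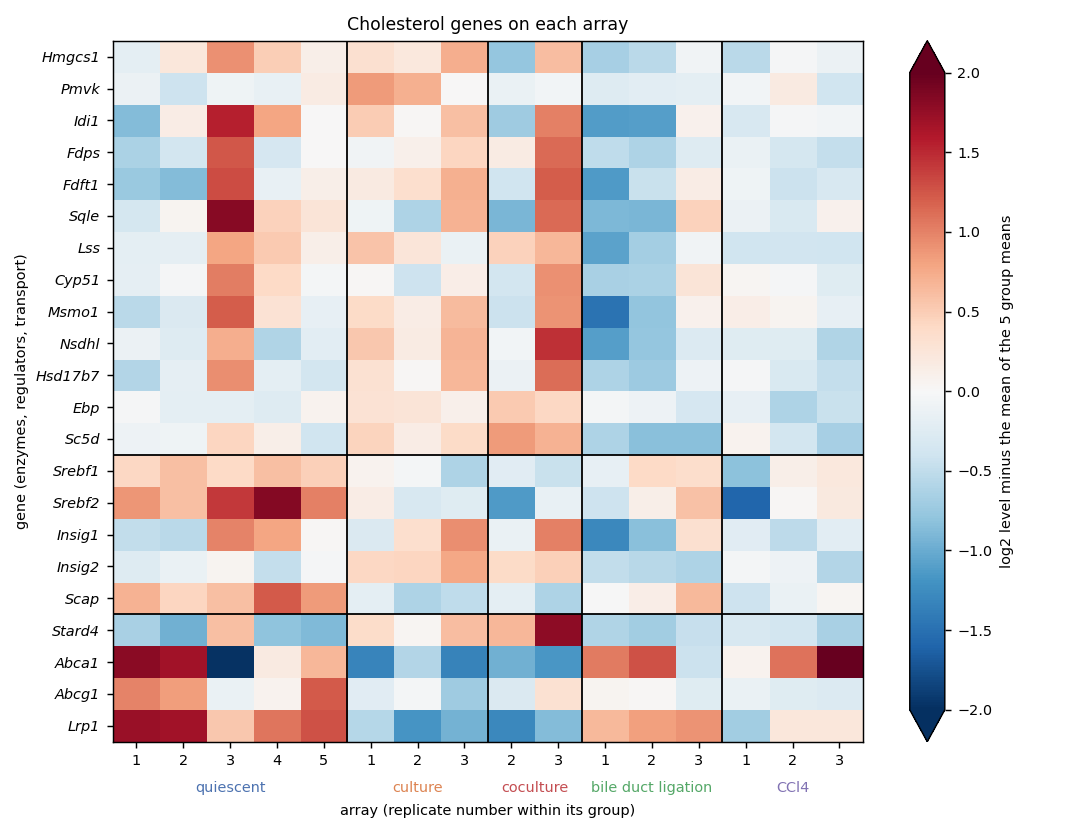
Colour shows the log2 level of each of the 22 tested genes (rows, in the order enzymes, regulators, transport) on each of the 16 arrays (columns, by group and replicate), minus the mean of the 5 group means of that gene; the scale is cut at 2 in both directions. The enzyme rows are warm on quiescent 3 and coculture 3 and cool on bile duct ligation 1 and 2, Abca1 runs the other way on quiescent 3, and Lrp1, Scap and Srebf2 are warm over the whole quiescent group.

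Across the 5 states, the receptor Lrp1, 4 of 5 regulators and 4 of 13 enzymes differed, and no enzyme before the closing of the sterol ring was among them. Of the 22 genes, 10 were called by the moderated F test of limma over the 5 group means (Benjamini-Hochberg adjusted p under 0.05 over all tested genes), and 63.0% of all tested genes were called, a larger share. They were the enzymes Lss, Nsdhl, Ebp and Sc5d, the regulators Srebf1, Srebf2, Insig2 and Scap, and the transport genes Stard4 and Lrp1. The lowest adjusted p belonged to Lrp1 (2.1e-05) and Sc5d (0.00038). The highest belonged to Sqle, at 0.56.

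Of the upstream enzymes, Hmgcs1 and Idi1 read above log2 5 on all 16 arrays, whereas Pmvk reached that level on 5. Hmgcs1, the cytosolic HMG-CoA synthase that feeds the mevalonate pathway, read 9.02, 9.43, 10.13, 9.71 and 9.33 on quiescent replicates 1 to 5 and 9.54, 9.43 and 9.93 in culture. It read 8.44 and 9.84 in coculture, 8.55, 8.67 and 9.14 after ligation, and 8.67, 9.18 and 9.09 after CCl4. The quiescent and cultured arrays overlapped, and the lower coculture array was the lowest of all 16. Idi1, which isomerises the 5-carbon isoprenoid unit, read 7.24, 8.26, 9.67, 8.89 and 8.11 in quiescent cells. It stood at 8.61, 8.14 and 8.71 in culture, 7.39 and 9.11 in coculture, between 6.99 and 8.19 after ligation, and at 7.78, 8.08 and 8.05 after CCl4. Its quiescent arrays alone spanned more than any group mean differed from another.

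Squalene is made by Fdft1 from the product of Fdps and is oxidised by Sqle, a rate-controlling step. Sqle read 5.21, 5.63, 7.38, 6.04 and 5.83 in quiescent cells, 5.49, 4.96 and 6.26 in culture and 4.66 and 6.70 in coculture. It read 4.68, 4.66 and 6.04 after ligation and 5.45, 5.27 and 5.66 after CCl4. Apart from quiescent 3 and coculture 3, no array exceeded the 6.26 of culture 3. Fdft1 had group means between 7.59 (ligation) and 8.47 (coculture), and Fdps between 7.73 (ligation) and 8.85 (coculture). Neither gene was called in any of the 7 comparisons. Of the late steps, Cyp51, the lanosterol demethylase, ranged over group means from 7.31 to 7.92 and Msmo1, the methyl sterol oxidase, from 7.86 to 8.97, and neither was called either. Hsd17b7, the sterone reductase that works beside Nsdhl, had group means from 5.72 to 6.70 and no call.

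Sc5d and Ebp, both late enzymes, were steadier within groups. Sc5d, which desaturates the sterol ring, read 7.71, 7.71, 8.24, 7.93 and 7.40 in quiescent cells, 8.25, 7.96 and 8.18 in culture, and 8.65 and 8.51 in coculture. It read 7.19, 6.97 and 6.97 after ligation and 7.87, 7.44 and 7.15 after CCl4. All coculture arrays lay above and all ligation arrays below the 5 quiescent ones. Ebp, the isomerase that shifts a ring double bond, read 7.77, 7.60, 7.60, 7.54 and 7.86 in quiescent cells and 8.31 and 8.21 in coculture. Its 3 culture values of 8.09, 8.05 and 7.90 also cleared the quiescent range, while its ligation values (7.75, 7.70 and 7.46) and CCl4 values (7.62, 7.18 and 7.35) overlapped it.

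**Figure D2:**
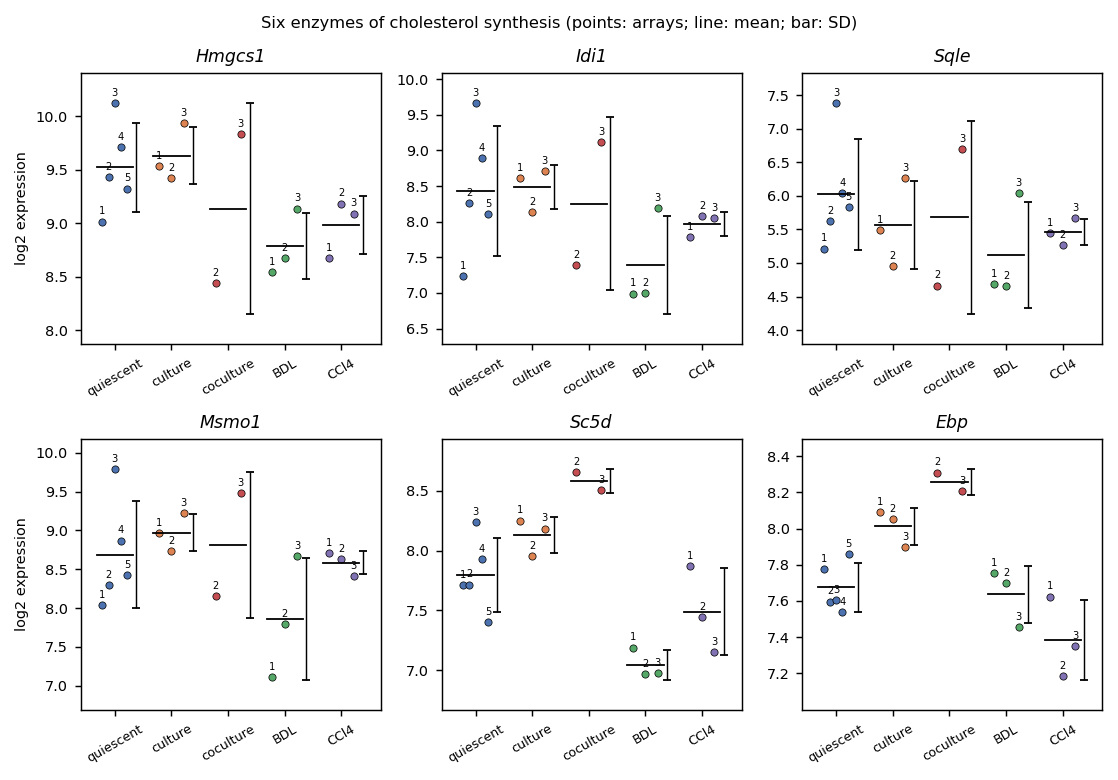
Log2 expression of 6 synthesis enzymes; each point is an array with its replicate number, the line is the group mean and the bar 1 SD (5 quiescent, 3 culture, 2 coculture, 3 bile duct ligation, BDL, and 3 CCl4 arrays). Hmgcs1, Idi1, Sqle and Msmo1 spread widely within groups with replicate 3 on top in the quiescent, culture, coculture and ligation groups, and Sc5d and Ebp separate coculture from the quiescent arrays.

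In culture against quiescent cells, which asks what activation on plastic does to these genes, 3 of 5 regulators and 2 of 4 transport genes fell, 1 of each rose, and 1 of 13 enzymes was called. Of 22 genes, 3 rose (Pmvk, Insig2 and Stard4) and 5 fell (Srebf1, Srebf2, Scap, Abcg1 and Lrp1). Called genes made up 42.1% of all tested genes, 18.5% higher and 23.5% lower, so 8 of 22 is no larger a share. Lrp1, a large endocytic receptor for remnant lipoproteins, protease complexes and matrix proteins, read 10.05, 10.01, 8.87, 9.39 and 9.60 in quiescent cells and 7.76, 7.15 and 7.39 in culture. The lowest quiescent array lay well above the highest cultured one, and the difference was -2.15 ± 0.26 (SE; 4.45-fold, adjusted p = 2.1e-05, limma). Scap, the SREBP escort, read 8.63, 8.37, 8.55, 9.17 and 8.80 in quiescent cells and 7.74, 7.33 and 7.43 in culture, again without overlap (-1.21 ± 0.20, 2.31-fold, adjusted p = 0.00024). Insig2, the retention protein, went the opposite way, from 7.38, 7.51, 7.69, 7.16 and 7.62 to 8.06, 8.08 and 8.41 (0.71 ± 0.16, adjusted p = 0.0023).

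Both SREBP genes were lower in culture. Srebf2, whose product drives cholesterol synthesis, read 6.33, 6.06, 6.87, 7.29 and 6.46 in quiescent cells and 5.61, 5.14 and 5.21 in culture, with no overlap (-1.28 ± 0.39, adjusted p = 0.017). A second probe set of the gene stood at -0.35 in culture and -0.52 after CCl4, neither called. Srebf1, which acts more on fatty acid synthesis, differed by -0.70 ± 0.23 (adjusted p = 0.022). Stard4, a cytosolic sterol carrier, rose by 0.88 ± 0.32 (adjusted p = 0.038), and Abcg1, an exporter to HDL, fell by 0.92 ± 0.30 (adjusted p = 0.021). Abcg1 read 5.87, 5.72, 4.74, 4.94 and 6.10 in quiescent cells and 4.65, 4.84 and 4.17 in culture, so the arrays overlapped. It reached log2 5 on 4 arrays, quiescent 1, 2 and 5 and coculture 3. It therefore entered the test only through its quiescent level, and its call is given as a description. Without culture replicate 3 the count dropped from 8 to 4, and Srebf1 (adjusted p = 0.13), Srebf2 (0.054), Abcg1 (0.11) and Stard4 (0.14) were no longer called. Srebf2 was also lost without culture replicate 2 (0.062), Pmvk without quiescent 2 (0.053), culture 1 (0.13) or culture 2 (0.11), and Stard4 without any 1 of quiescent 1, 2, 4 and 5 and culture 1 (0.065 to 0.086). Stard4 was not called either with its most variable probe set (0.62, adjusted p = 0.23) or with the mean of its probe sets (0.67, 0.13). In all it lost the call under 13 of 25 alternative settings.

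The enzymes had a median difference of 0.29 in culture, with 11 of 13 above 0, where the median of all tested genes was -0.05. The enzyme median was 0.44 without quiescent 3, 0.19 without quiescent 2 and 0.13 (8 of 13 above 0) without quiescent 1. Without culture 3 it was 0.19, with 9 of 13 above 0. Pmvk, phosphomevalonate kinase, was the one called, at 0.64 ± 0.22 (adjusted p = 0.027), from a quiescent mean of only 4.90. Ebp stood 0.34 ± 0.13 higher and just missed the threshold (adjusted p = 0.054). Insig1, an SREBP-2 target that acts like Insig2, was not called, at 0.17 (95% interval -0.73 to 1.08) with overlapping arrays.

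Abca1, which loads cholesterol onto apolipoproteins, was the most variable of the 22. It read 7.91, 7.79, 4.12, 6.28 and 6.77 in quiescent cells, 4.79, 5.51 and 4.76 in culture and 5.15 and 4.94 in coculture. After ligation it read 7.15, 7.38 and 5.68, and after CCl4 6.18, 7.19 and 8.11. Apart from quiescent 3, every array of the 5-day groups lay below every array of the groups plated for 24 h. The culture difference was -1.55 ± 0.69 with adjusted p = 0.082 on all arrays, and -2.17 with adjusted p = 0.0036 without quiescent replicate 3. In coculture it was -1.53 ± 0.79 (adjusted p = 0.14) on all arrays and -2.15 (0.0091) without that array.

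In coculture against quiescent cells, 4 genes rose (Ebp, Sc5d, Insig2 and Stard4) and 4 fell (Srebf1, Srebf2, Scap and Lrp1). Over all tested genes, 38.7% were called, 17.8% higher and 20.9% lower, so the 8 of 22 were again near the background. The control and uptake genes had the signs seen in culture, from a comparison that shares the same 5 quiescent arrays. Lrp1 read 7.04 and 7.46 (-2.33 ± 0.30, 5.04-fold, adjusted p = 4.4e-05), Scap 7.75 and 7.32 (-1.17 ± 0.23, adjusted p = 0.0011) and Srebf2 4.32 and 5.31 (-1.79 ± 0.45, adjusted p = 0.0061). Stard4 showed its largest difference here. It read 5.59, 5.28, 6.85, 5.44 and 5.36 in quiescent cells and 6.91 and 8.03 in coculture, so the lower coculture array lay just above quiescent 3 (1.76 ± 0.37, 3.39-fold, adjusted p = 0.0018).

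Sc5d rose by 0.78 ± 0.21 in coculture (adjusted p = 0.0097) and Ebp by 0.58 ± 0.15 (adjusted p = 0.0078). The enzymes had a median of 0.35, which was 0.49 without quiescent 3, 0.68 without coculture 2 and -0.03 without coculture 3, so its sign rests on coculture 3. For Sc5d a second probe set went the other way, at -0.84 (adjusted p = 0.25 with the most variable probe set per gene), and the mean of both gave 0.02 (0.96), so its rise rests on 1 probe set. With only 2 coculture arrays, leaving out either leaves a single one, whose spread is then taken from the other groups. Without coculture 2, Ebp (adjusted p = 0.073), Sc5d (0.084), Srebf1 (0.058), Srebf2 (0.11) and Insig2 (0.066) were lost, and without coculture 3, Srebf1 (0.14), Insig2 (0.12) and Stard4 (0.064). Without quiescent 3 the count rose from 8 to 12, with Fdps (0.98, adjusted p = 0.0071), Nsdhl (1.00, 0.031), Hsd17b7 (0.83, 0.045) and Abca1 added.

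Coculture against culture, which asks what Kupffer cells add over 5 days, gave 0 called genes of 22 by limma, against 15.4% of all tested genes (8.37% higher and 7.03% lower). At an unadjusted p under 0.05 there were 2, Pmvk and Stard4. Every called gene also passes that threshold, so at least 15.4% of all tested genes did, and 2 of 22 is no larger a share. Pmvk differed by -0.62 (95% interval -1.20 to -0.04, adjusted p = 0.14) and Stard4 by 0.88 (0.02 to 1.74, adjusted p = 0.16). Neither gene's arrays overlapped, which groups of 2 and 3 arrays can easily show without a difference. The interval for Sqle ran from -1.25 to 1.46 and that for Lrp1 from -0.88 to 0.53, so differences of either sign remain possible for the variable enzymes. One gene was called without quiescent 3 (Stard4, adjusted p = 0.049), without culture 3 (Pmvk, 0.043) and without coculture 3 (Hmgcs1, -1.19, 0.045).

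**Figure D3:**
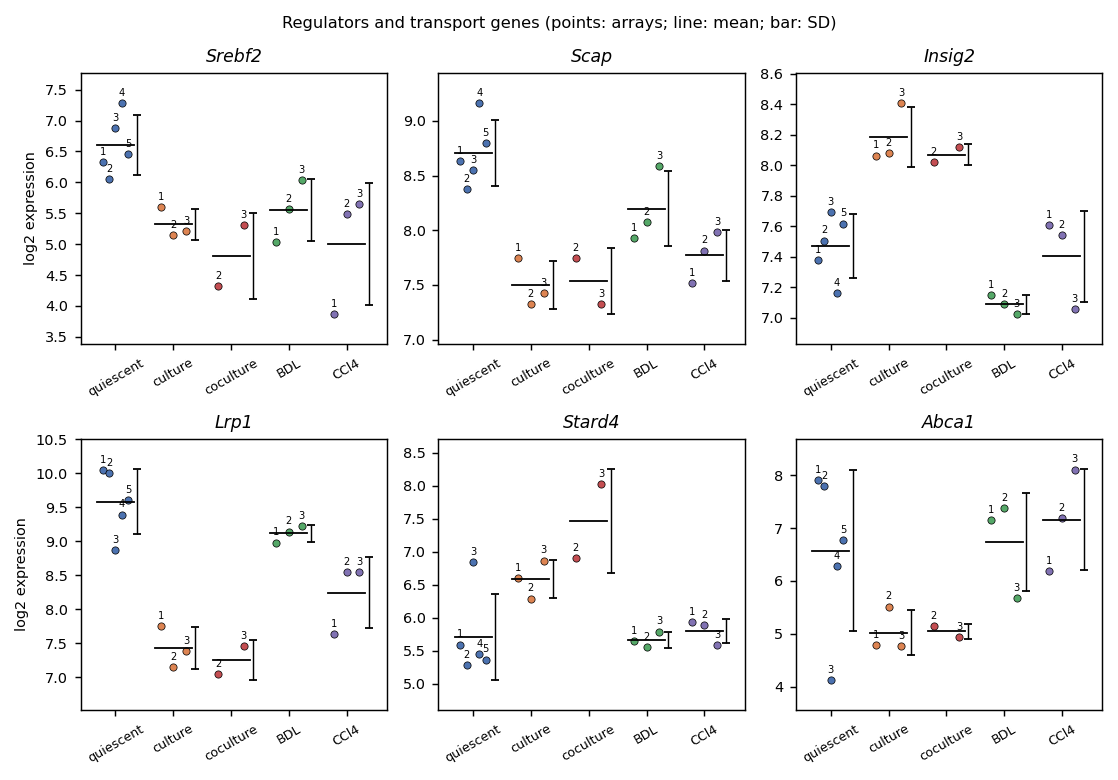
Log2 expression of 3 regulators and 3 transport genes by array; points carry the replicate number, lines are group means and bars 1 SD (BDL, bile duct ligation). Srebf2, Scap and Lrp1 are lower in culture, coculture and CCl4 than on any quiescent array, Insig2 is higher in both 5-day groups, and Abca1 is low in the 5-day groups and on quiescent 3.

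The 4 genes below the filter are given as values. Dhcr7, the last reductase, ranged from 4.21 to 5.55 in quiescent cells, 3.74 to 4.21 in culture, 3.16 to 4.44 in coculture, 4.07 to 4.37 after ligation and 2.80 to 3.54 after CCl4. Mvk, mevalonate kinase, had its highest value, 5.72, on quiescent 3 and its lowest, 3.89, on quiescent 2. Mvd, the decarboxylase, ran from 2.89 to 4.45, the top again on quiescent 3. Tm7sf2, a sterol reductase, read 3.23, 2.83 and 3.66 in culture and 1.80 to 2.53 in quiescent cells, all near the floor.

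After bile duct ligation, all 13 tested enzymes had a difference below 0 against quiescent cells, but few passed. Their median was -0.62 and that of all tested genes -0.05. Without quiescent 3 it was -0.42, again with all 13 below 0, and without ligation 3 it was -0.84 with 12 below 0. Of 22 genes, 0 rose and 2 fell, Lss, the cyclase that forms lanosterol, and Sc5d. Called genes were 16.9% of all tested genes, 8.03% higher and 8.83% lower, so the count was not above the background. Lss read 6.27, 6.29, 7.25, 6.99 and 6.59 in quiescent cells and 5.40, 5.79 and 6.39 after ligation, with replicate 3 inside the quiescent range (-0.82 ± 0.26, 1.76-fold, adjusted p = 0.039). Sc5d fell by 0.75 ± 0.19 (1.69-fold, adjusted p = 0.011) with no overlap, and its second probe set stood at -1.23 (adjusted p = 0.10). Idi1 stood at -1.04 ± 0.47 (adjusted p = 0.14), Hmgcs1 at -0.74 ± 0.29 (0.093) and Srebf2 at -1.05 ± 0.39 (0.081), each short of the threshold.

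Lss was no longer called when any 1 of quiescent 3 (adjusted p = 0.082), quiescent 4 (0.066), quiescent 5 (0.058), ligation 1 (0.22) or ligation 2 (0.12) was left out, nor without culture 2, CCl4 2 or CCl4 3 (0.051 to 0.052), which leaves Sc5d alone. Down-weighting unreliable arrays gave 6 calls in place of 2, Idi1 was called without quiescent 1 (-1.34, adjusted p = 0.047), and Scap without ligation 3 (-0.70, 0.042). Lrp1 and Scap, which fell in the other 3 activated groups, were at -0.47 ± 0.26 (adjusted p = 0.25) and -0.51 ± 0.20 (0.096) here. Averaging its probe sets gave Lrp1 a call at -0.93 (adjusted p = 0.034). Hmgcs1 was called when either coculture array was left out (0.036 in both cases). Summed hepatocyte markers were higher on the 3 ligation arrays (7.79 to 9.24 on the log2 scale, defining marker Alb included) than on the quiescent arrays (5.18 to 5.88). The sum of 6 genes listed as mesothelial markers, of which Krt8 alone averaged log2 5 or more, stood at 6.99 to 7.62 against 4.18 to 4.50. A sum in which 1 keratin gene alone reached that level does not show that mesothelial cells were present. The part of the hepatocyte and Krt8 transcripts in these differences was not tested.

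After CCl4, the enzymes had a median of -0.30 with 12 of 13 below 0, and none was called. Without quiescent 3 the median was -0.12 with 8 of 13 below 0. Of 22 genes, 0 rose and 4 fell, the regulators Srebf1, Srebf2 and Scap and the receptor Lrp1, against 22.0% of all tested genes called, 9.51% higher and 12.5% lower, so 4 of 22 is again no larger a share. Lrp1 read 7.63, 8.55 and 8.55 (-1.34 ± 0.26, 2.53-fold, adjusted p = 0.0022) and Scap 7.52, 7.81 and 7.98 (-0.93 ± 0.20, adjusted p = 0.0040), both below all quiescent arrays. Srebf2 read 3.87, 5.49 and 5.65 (-1.60 ± 0.39, 3.03-fold, adjusted p = 0.0095), and without CCl4 replicate 1, its lowest array, the difference was -1.03 (adjusted p = 0.076). Srebf1 was on the threshold (-0.66 ± 0.23, adjusted p = 0.048) and lost its call under 20 of 26 alternative settings, with adjusted p = 0.33 without CCl4 replicate 1. Without that array 2 genes were left.

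Hepatocyte markers summed to 8.66, 9.49 and 11.42 on CCl4 replicates 1 to 3 and mesothelial markers (Krt8 and Lrrn4 of 6 at log2 5 or more) to 7.33, 7.80 and 10.17, against at most 5.88 and 4.50 on any quiescent array. The array lowest in Lrp1, Scap and Srebf2, replicate 1, was the lowest of its group in both sums. It was the highest of its group in summed macrophage markers (8.58, with 7.54 on replicate 2 and 8.25 on replicate 3). Of 16 macrophage markers, Cd68 and Lyz2 averaged log2 5 or more after CCl4, ligation and in coculture, and Cd68 alone in quiescent cells. Their sum was 7.54 to 8.58 after CCl4, 7.11 to 8.95 after ligation, 8.35 to 8.41 in coculture, 6.49 to 6.68 in culture and 6.87 to 8.10 in quiescent cells, with Lyz2 at 5.46 ± 1.52 (SD, n = 3) against 2.02 ± 0.24 (n = 5) and Adgre1 near the floor in both. Lyz2 was at 5.49 ± 0.02 (n = 2) in coculture and 5.91 ± 1.62 (n = 3) after ligation. The part of these cells in the differences was not tested.

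The ligation and CCl4 groups themselves gave 0 called genes of 22 by limma, where 0.166% of all tested genes were called, 0.0256% higher and 0.141% lower. At an unadjusted p under 0.05 there was 1, Lrp1, and the share of all tested genes at that threshold is not given here. The Lrp1 ligation values of 8.98, 9.14 and 9.22 lay above the CCl4 values (0.87, 95% interval 0.24 to 1.50, adjusted p = 0.22). Msmo1 differed by -0.73 (-1.66 to 0.20), and Sc5d by -0.44 (-0.89 to 0.00).

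Culture activation was also set against the mean of the ligation and CCl4 groups, a difference that contains no quiescent value, although the quiescent arrays add to the spread estimated in the model. Here the enzymes stood higher in culture, all 13 with a difference above 0 and a median of 0.72, where all tested genes had a median of -0.02. Of 22 genes 8 rose (Hmgcs1, Pmvk, Lss, Nsdhl, Ebp, Sc5d, Insig2 and Stard4) and 3 fell (Scap, Abca1 and Lrp1). The share called among all tested genes was 50.9%, 25.0% higher and 25.9% lower, so 11 of 22 matches the background in number. Sc5d differed by 0.87 ± 0.18 (1.82-fold, adjusted p = 0.0011), Nsdhl by 1.00 ± 0.31 (adjusted p = 0.015), Ebp by 0.50 ± 0.13 (0.0048), Hmgcs1 by 0.75 ± 0.28 (0.034) and Lss by 0.72 ± 0.25 (0.024). Nsdhl, which removes a methyl carbon from the ring, read 7.67, 7.29 and 7.80 in culture and between 6.03 and 6.89 on the 6 in vivo arrays.

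Insig2 had the lowest adjusted p of this comparison (0.94 ± 0.15, 1.92-fold, 0.00015), with its 3 culture arrays above all 6 in vivo arrays. Abca1 was 3.80-fold lower in culture (-1.93 ± 0.67, adjusted p = 0.025), with no overlap, and Lrp1 2.38-fold lower (-1.25 ± 0.26, 0.00093). With the mean of all probe sets, Lrp1 stood at -0.53 (adjusted p = 0.12), Scap at -0.23 (0.21) and Stard4 at 0.76 (0.067), all without a call. For Srebf2 the difference was 0.04 (95% interval -0.77 to 0.86). Scap also lost its call without quiescent 1 (0.055), quiescent 3 (0.053) or quiescent 5 (0.055). Array weights, or a fit of the compared arrays alone, gave 16 calls. The count of 11 fell to 6 without culture 1 or culture 3 and to 7 without ligation 2. Hmgcs1 (0.060), Pmvk (0.087), Lss (0.12), Stard4 (0.076) and Abca1 (0.075) were lost without culture 1, and Hmgcs1 (0.15), Nsdhl (0.067), Scap (0.13), Stard4 (0.13) and Abca1 (0.083) without culture 3. Summed hepatocyte, mesothelial and macrophage markers were all higher in the in vivo groups than in culture. Of the listed mesothelial genes, Krt8 alone averaged log2 5 or more after ligation. The part of these transcripts in the differences was not tested.

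**Figure D4:**
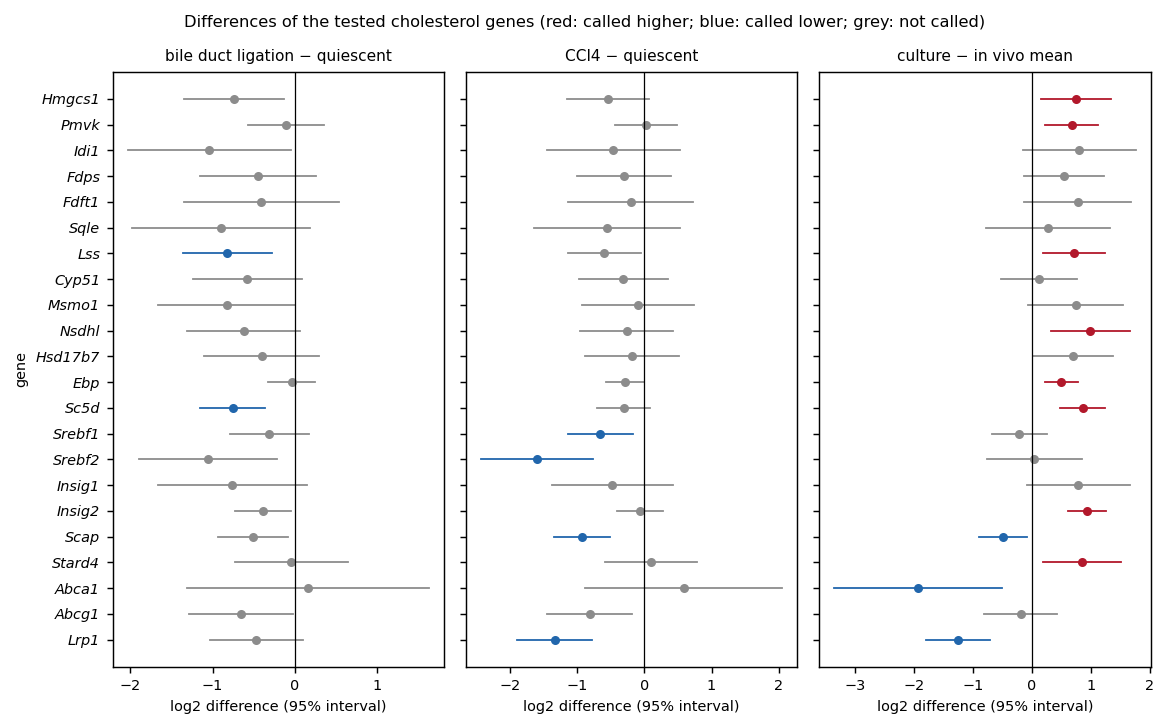
Log2 differences (points) with 95% intervals (lines) of the 22 tested genes in 3 comparisons; red marks genes called higher in the first group, blue called lower and grey not called. All 13 enzymes lie below 0 after ligation and above 0 in culture against the in vivo mean, mostly with wide intervals, and Srebf2, Scap and Lrp1 carry the calls after CCl4.

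The spread within groups had a structure of its own. The SD within groups was 0.49 at the median of the 13 enzymes and 0.28 at the median of all tested genes. Abca1 had 1.10, larger than in 99.0% of all tested genes, Sqle 0.80 (96.5%), Idi1 0.74 (95.4%) and Fdft1 0.70 (94.3%). Ebp (0.15, larger than in 9.4%), Insig2 (0.20) and Sc5d (0.26) were at or below the ordinary spread. The variable enzymes varied together. To describe this, each gene was fitted on Hmgcs1 with the 5 group means removed, a fit chosen after the values had been seen and given without a test.

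Idi1 moved by 1.55 ± 0.18 (SE) log2 units for each unit of Hmgcs1, Sqle by 1.64 ± 0.23, Msmo1 by 1.20 ± 0.20 and Cyp51 by 0.97 ± 0.16. The fit ranked 7822 genes by the moderated statistic, 21 of them from this list. Idi1, Sqle, Cyp51 and Msmo1 took ranks 1 to 4, and 6 of the first 10 and 10 of the first 50 were genes of this list. Hsd17b7 (rank 6), Fdft1 (9), Insig1 (13), Nsdhl (26), Fdps (31) and Stard4 (45) completed the 10. Srebf2 followed at rank 91 with a slope of 0.92 ± 0.29. Abca1 had a slope of -1.29 ± 0.57 (rank 451). Insig2, Sc5d, Pmvk, Srebf1, Lrp1 and Scap had slopes between -0.07 and 0.07.

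Among genes outside the list, Elovl6, a fatty acid elongase under SREBP-1, was at rank 7 (1.18 ± 0.25), Lbr, the lamin B receptor with sterol reductase activity, at rank 8 (0.49 ± 0.10), and the chaperone Hspa5 at rank 5 with a negative slope (-0.54 ± 0.10). Without quiescent 3 the list held 4 of the first 10 and 6 of the first 50, without coculture 3 it held 7 and 10, and without both 2 and 4. Idi1 kept rank 1 in each case, with slopes of 1.42, 1.81 and 1.67. The slope of Abca1 was -0.55 ± 0.50 without quiescent 3 and -2.22 ± 0.70 without coculture 3. Sqle was at rank 2 without either array and at rank 10 without both, so the number of listed genes near the top depended on those 2 arrays.

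**Figure D5:**
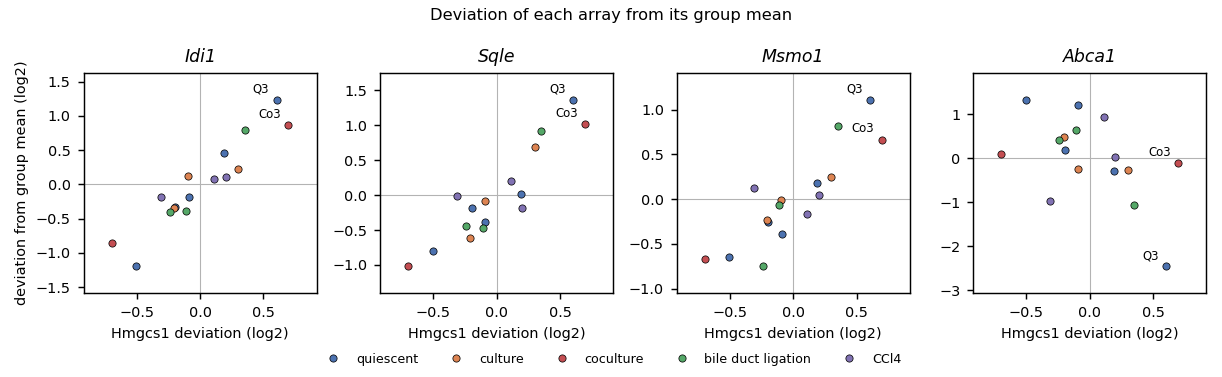
Deviation of each array from its group mean for Idi1, Sqle, Msmo1 and Abca1 (vertical axes, log2) against that for Hmgcs1 (horizontal axes, log2), coloured by group; quiescent 3 (Q3) and coculture 3 (Co3) are labelled. In the quiescent, coculture and ligation groups the 3 enzymes climb with Hmgcs1, but Msmo1 does not do so over the 3 CCl4 arrays; Abca1 is lowest on Q3 and rises with Hmgcs1 from CCl4 1 to the other CCl4 arrays.

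Genes that work beside the list in sterol synthesis and SREBP control gave 16 tested of 23 listed. In culture 1 rose and 5 fell (42.1% of all tested genes were called), in coculture 2 and 4 (38.7%), after ligation 2 and 1 (16.9%) and after CCl4 2 and 3 (22.0%). In coculture against culture 2 rose and 2 fell (15.4%), and in culture against the in vivo mean 4 and 3 (50.9%). Pgrmc1, a haem-binding partner of sterol-demethylating P450 enzymes, rose in all 4 activated states, by 0.60 ± 0.11 (adjusted p = 0.00062) in culture, 1.04 ± 0.13 (2.8e-05) in coculture, 0.46 ± 0.11 (0.010) after ligation and 0.87 ± 0.11 (7.6e-05) after CCl4. Erlin2, a membrane protein that restrains SREBP activation and aids sterol-driven protein decay, fell in all 4 too, at -0.40 ± 0.12 (0.015) in culture, -0.77 ± 0.14 (0.00059) in coculture, -0.60 ± 0.12 (0.0027) after ligation and -0.66 ± 0.12 (0.0012) after CCl4. Nus1, a subunit of the dolichol-making prenyltransferase that branches off the pathway, rose in coculture (0.98 ± 0.17, 0.00051), after ligation (0.50 ± 0.15, 0.032) and after CCl4 (0.70 ± 0.15, 0.0042), and stood at 0.30 ± 0.15 in culture (0.12).

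Of 49 further genes of cholesterol uptake, transport, esterification, oxidation and efflux, 29 were tested. Against the same shares of all tested genes, 8 rose and 3 fell in culture (42.1%), 12 and 8 in coculture (38.7%), 4 and 4 after ligation (16.9%) and 4 and 9 after CCl4 (22.0%). In coculture against culture 7 rose and 4 fell (15.4%), and in culture against the in vivo mean 13 and 5 (50.9%). The oxysterol-forming enzymes parted by state. Cyp27a1, the mitochondrial sterol 27-hydroxylase, read 4.00 ± 0.56 (SD, n = 5) in quiescent cells, 7.88 ± 1.34 (n = 3) in culture, 4.90 ± 0.79 (n = 2) in coculture, 3.02 ± 0.06 after ligation and 2.85 ± 0.43 after CCl4 (n = 3 each). Its difference between culture and the in vivo mean was 4.94 ± 0.46 (SE, adjusted p = 1.2e-06). Ch25h, the 25-hydroxylase of the endoplasmic reticulum, had the opposite layout, at 2.92 ± 1.95 in quiescent cells and 2.74 ± 0.26 in culture but 9.25 ± 0.05 in coculture, 7.76 ± 0.35 after ligation and 9.56 ± 0.47 after CCl4. Cyp7b1, which acts on the oxysterols they form, rose by 2.26 ± 0.65 in culture (adjusted p = 0.012), 5.66 ± 0.75 in coculture (4.8e-05), 3.53 ± 0.65 after ligation (0.0015) and 3.32 ± 0.65 after CCl4 (0.0021).

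For lysosomal exit, Npc2, which hands cholesterol on inside the lysosome, rose in culture (0.53 ± 0.11, adjusted p = 0.0013) and coculture (1.08 ± 0.12, 1.5e-05). Its membrane partner Npc1 fell in culture (-1.09 ± 0.19, 0.00045), coculture (-0.77 ± 0.22, 0.013) and after CCl4 (-0.65 ± 0.19, 0.025), and stood at -0.57 ± 0.19 after ligation (0.055). Pltp, the phospholipid transfer protein, rose in culture by 1.59 ± 0.22 (4.9e-05), fell against quiescent cells in coculture (-0.86 ± 0.25, 0.013), after ligation (-0.73 ± 0.22, 0.029) and after CCl4 (-0.81 ± 0.22, 0.014), and fell by 2.45 ± 0.27 from culture to coculture (4.3e-05). Abca8a, a transporter linked to cholesterol efflux, fell in all 4 states (-3.19 ± 0.57 in culture, -3.55 ± 0.65 in coculture, -3.13 ± 0.57 after ligation and -3.58 ± 0.57 after CCl4). Rxra, the partner receptor of LXR, fell in coculture (-1.48 ± 0.23), after ligation (-0.94 ± 0.20) and after CCl4 (-1.42 ± 0.20), and stood at -0.48 ± 0.20 in culture (0.066).

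Genes of fatty acid synthesis, many of them SREBP-1 targets, gave 19 tested of 25. Of these, 1 rose and 8 fell in culture (42.1% of all tested genes called), 1 and 4 in coculture (38.7%), 1 and 2 after ligation (16.9%) and 1 and 6 after CCl4 (22.0%). In coculture against culture 2 rose and 0 fell (15.4%), and in culture against the in vivo mean 3 and 5 (50.9%). Fasn, the fatty acid synthase, fell by 1.71 ± 0.27 in culture (adjusted p = 0.00016) and by 1.49 ± 0.30 in coculture (0.0015), and Acaca, which makes its substrate, by 1.12 ± 0.18 and 1.25 ± 0.21. Scd1, the stearoyl-CoA desaturase, rose against that trend by 2.61 ± 0.54 in coculture, 3.44 ± 0.47 after ligation and 2.09 ± 0.47 after CCl4. Of 30 cell cycle genes, 19 were tested, and 10 rose and 4 fell in culture (42.1% of all tested genes called), 17 and 1 in coculture (38.7%), 17 and 1 after ligation (16.9%) and 16 and 0 after CCl4 (22.0%). In coculture against culture 18 rose and 0 fell (15.4%), and in culture against the in vivo mean 0 and 17 (50.9%).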

How the data were processed

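RNA from 16 stellate cell preparations was hybridised to 1 Affymetrix mouse array each. The authors deposited log2 expression values per probe set, made with GCRMA according to the submitters' processing notes, with version and settings not given in the sources used here. GCRMA models background from probe sequence, so unexpressed probe sets pile up near log2 2 (array medians 2.00 to 2.06) and a difference that starts there depends on that model. The number of arrays limits the precision that can be stated, as do the background model near the floor and the probe set chosen.

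Of 45101 probe sets, 34945 had 1 symbol, naming 18193 genes. Genes below log2 5 on all but 1 array or on all arrays were dropped, which left 7823. A single model of the 5 group means was fitted in limma 3.58.1 in R 4.3.3 (lmFit, eBayes with trend), and checked on simulated data. Tests were two-sided, and a gene was called at a Benjamini-Hochberg adjusted p under 0.05 over all 7823 genes. The in vivo mean is the mean of the 2 injury group means. A log2 difference of 1 is 2-fold. Summed marker levels are log2 of the sum of linear values. No more than 145 of 18193 gene values were identical in any pair of arrays, so no array was a copy of another. Each array counted as 1 sample, although this check cannot show that the preparations were independent.

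The genes, lists, tests and comparisons were chosen with earlier results of these data known. The text names all 28 genes, some of the up to 4 called genes with the smallest adjusted p per further list and comparison, cell type markers averaging log2 5 or more in a group, and Des, Pdgfrb, Adgre1 and Alb. The fit on Hmgcs1 with Elovl6, Lbr and Hspa5 in it, and the low markers Ngfr, Cyp7a1, Hnf4a, Tat and Pck1, were chosen after the values were seen. So were the remaining hepatocyte markers Apoa2, Cyp3a11, Apob and Cyp2e1. Alternatives covered the filter, probe set choice, array weights, centring, variance prior, arrays in the fit, the replicate number as a block and leaving out arrays.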

Additional observations from a re-analysis of the deposited data

Results flagged for a closer look

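In the quiescent group, the only group with enough arrays for a check of single outlying values, 2 of 26 measured genes had an array set apart from the rest by a gap over Dixon's 95% critical value, and chance flags about 1 in 20. Both values came from quiescent replicate 3. Hsd17b7 was 7.14 there, with the next array at 6.03, and Stard4 was 6.85, with the next at 5.59.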

How the results depend on the processing

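Of 33 called differences of these genes, 10 stayed called under every one of up to 26 alternative settings, namely Insig2, Scap and Lrp1 in culture, Scap and Lrp1 in coculture and after CCl4, and Ebp, Sc5d and Insig2 in culture against the in vivo mean. The other 23 lost the call under at least 1, and 1 reversed, Sc5d in coculture, at -0.84 (adjusted p = 0.25) with the most variable probe set. Of 23 pairings of a called difference with a further probe set of the same gene, 22 had the same sign and 12 were called in the same direction. In culture against quiescent (8 calls), a fit of the compared arrays alone left 5, and leaving out quiescent 4, culture 3 and CCl4 3 together left 4. A filter at log2 7 gave 5 calls there, Srebf1, Insig2, Scap, Lrp1 and newly Ebp (adjusted p = 0.049). Pmvk, Srebf2, Stard4 and Abcg1 did not pass that filter and were not tested under it. Leaving out those 3 arrays together gave 1 in coculture against culture (0) and 6 in culture against the in vivo mean (11). In the latter the mean of all probe sets also gave 6, and array weights and a fit of the compared arrays alone each gave 16. After ligation (2), no filter, the most variable probe set or centring each array left 1, and array weights gave 6. With the mean of all probe sets Sc5d lost its call there (adjusted p = 0.054), and the 1 call was Lrp1 (0.034), a gene not called otherwise. Leaving out single arrays gave 4 to 9 calls in culture, 4 to 12 in coculture, 0 to 1 between them, 1 to 3 after ligation, 2 to 4 after CCl4, 0 between the injuries, 6 to 12 in culture against the in vivo mean and 9 to 14 over the 5 groups. The causes were not tested. With the replicate number as a block, the counts were 6, 7, 0, 2, 3, 0 and 13 in the order of the 7 comparisons and 10 over the 5 groups; the block ended the calls of Srebf1 and Stard4 in culture, Insig2 in coculture, Lss after ligation and Srebf1 after CCl4, and added Hmgcs1 after ligation (adjusted p = 0.049) and Hsd17b7 and Insig1 in culture against the in vivo mean. The numbers were not taken as pairing, since deviations of same-numbered arrays correlated at -0.26 to 0.54 and above 0.1 in 7 of 26 pairs. The highest were the culture and coculture arrays numbered 2 (0.31) and 3 (0.54), the 2 pairs these groups share; quiescent 3 correlated at 0.28 with culture 3 and 0.21 with coculture 3.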
